A study of Mus musculus with 3 samples.

Results

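The accessible chromatin of 10 genes of bone morphogenetic protein (BMP) signalling was examined in hair follicle stem cells (HFSCs). The 10 genes are the ligands Bmp2, Bmp4 and Bmp6, the receptors Bmpr1a and Bmpr2, the signal transducers Smad1 and Smad5, and the target genes Id1, Id2 and Id3. They were chosen by name, as 10 of 21851 protein-coding genes of the GRCm38 annotation, and every peak from 20 kb before the start site to 20 kb after the gene end was taken as lying in the window of the gene. Omni-ATAC-seq, in which Tn5 transposase cuts open DNA and inserts sequencing adapters, was performed on HFSCs sorted from the dorsal skin of untreated mice aged 6 months whose follicles were in telogen, when the hair cycle rests. One library came from wild-type C57BL/6J mice matched for hair cycle stage (Msx2-WT, written WT) and 2 came from homozygous Msx2 knockouts (Msx2-KO replicates 1 and 2, written KO1 and KO2). By the study's methods, the knockout is a germline allele with a pMC1-neo cassette inserted upstream of the second exon of Msx2, a homeobox gene. Such an allele disrupts the gene in every tissue and not in HFSCs alone. The comparison asks how open chromatin at these genes differed without Msx2. The WT library may have been of another batch than the KO libraries. Batch and genotype therefore cannot be told apart, and no test between genotypes was made because WT had 1 library. The labels do not say whether the KO libraries came from separate animals.

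BMP ligands bind a complex of type I and type II receptors, which phosphorylates SMAD1 and SMAD5. These enter the nucleus with SMAD4 and bind DNA at target genes, of which the Id genes are among the most direct. Id proteins pair with basic helix-loop-helix factors and keep them off DNA. In the hair follicle, BMP signalling is known for holding stem cells quiescent through telogen.

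A known SMAD binding element of BMP target genes holds GGCGCC followed 5 bases later by GTCT, 15 bases in all. The Id genes are such targets, so matches near them were likely in advance and the shares below are description only. Both strands of chromosomes 1 to 19, X and Y held 447 exact matches. The windows of the 10 genes held 6, and all 6 lay in windows of the Id genes. The windows of the other 7 genes held none. Across all protein-coding genes, 2.28% had a match in the same kind of window, 0.0778% had at least 2 and 0.0137% had at least 3. Id1 had 1 match, Id2 had 2 and Id3 had 3. Each is given with its surroundings, because the next paragraphs describe where the peaks fell around these letters. Capitals mark the matched letters, positions count from the outermost start site of the gene along its strand to the first matched base, and coordinates are those of GRCm38.
Id1 +3220 (chr2:152739433-152739523, plus strand): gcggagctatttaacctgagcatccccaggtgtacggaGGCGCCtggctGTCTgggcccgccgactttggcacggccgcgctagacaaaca
Id2 −1728 (chr12:25098816-25098906, minus strand): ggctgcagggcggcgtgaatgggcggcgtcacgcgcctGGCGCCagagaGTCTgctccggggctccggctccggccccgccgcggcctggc
Id2 +4082 (chr12:25093006-25093096, minus strand): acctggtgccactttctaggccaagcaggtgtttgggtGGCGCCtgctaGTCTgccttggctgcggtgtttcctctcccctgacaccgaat
Id3 −2957 (chr4:136140502-136140592, plus strand): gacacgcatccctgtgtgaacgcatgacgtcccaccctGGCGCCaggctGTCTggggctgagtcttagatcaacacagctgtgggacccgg
Id3 +1296 (chr4:136144755-136144845, plus strand): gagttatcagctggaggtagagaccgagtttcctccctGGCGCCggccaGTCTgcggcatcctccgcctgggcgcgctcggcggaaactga
Id3 +4484 (chr4:136147943-136148033, plus strand): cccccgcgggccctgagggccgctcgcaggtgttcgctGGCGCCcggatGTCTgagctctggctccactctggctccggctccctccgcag
Each of the 6 matches read in the same direction as its gene. The Id3 match at +1296 lay in intron 2 of the gene, and the other 5 lay upstream or downstream of the gene.

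The matches at Id1 +3220 and Id2 −1728 lay in a peak in all 3 libraries. Among all 447 matches, 6.71% lay in a peak in all 3, so the Id genes held 2 of 30 such matches. At Id1 +3220 the nearest summit was 22 bases away in WT, 22 in KO1 and 21 in KO2, with 32, 19 and 30 tags at the summit. A tag is a sequenced read extended by the peak caller, and tag numbers were recovered from the deposited fold and p-value. At Id2 −1728 the nearest summit was 44, 22 and 153 bases away, with 21, 23 and 39 tags. Over all matches in a peak the median distance to a summit was 136 bases in WT, 247 in KO1 and 244 in KO2. The Id1 match was thus closer to the summit than the median in each library, as was the Id2 match.

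The Id3 matches differed between libraries. The match at +4484 lay 45 bases from a summit of 24 tags in WT and 98 bases from a summit of 17 tags in KO2. In KO1 this region was listed, with 8 tags, but did not pass a q-value of 0.01. The match at +1296 lay 35 bases from a summit of 22 tags in WT. In KO2 it lay within the wide promoter peak, 1022 bases from its summit, and in KO1 it lay at the edge of the promoter peak, with its centre outside. The match at −2957 lay in no peak in any library. At Id2 +4082 only KO2 had a peak past the q-value, with the match at its edge and its summit of 18 tags 430 bases away. The same region was listed below the q-value with 11 tags in WT and 12 in KO1, though the WT listing did not hold the match. The 2 downstream Id3 and Id2 matches missed in KO1 were listed there below the q-value, in the library with the fewest tags.

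**Figure D1:**
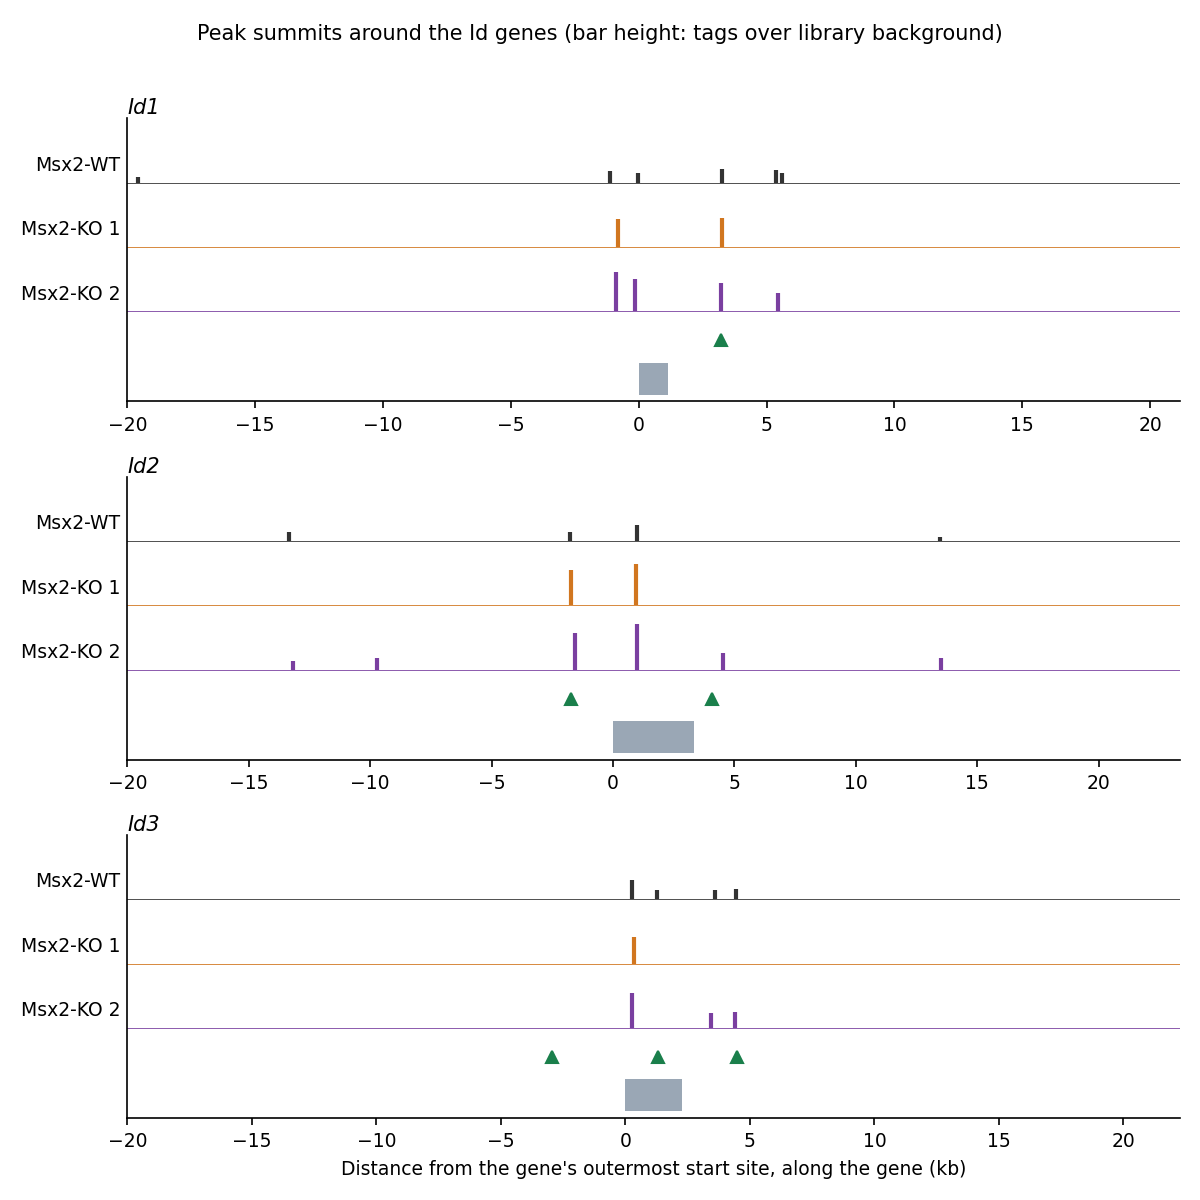
Peak summits past a q-value of 0.01 around Id1, Id2 and Id3 in the 3 libraries, by distance in kb from the outermost start site, with bar height giving tags over the library background, grey boxes the genes and green triangles the 6 response element matches. The tallest bar, at the Id2 promoter in KO2, stands for 62.0, and a summit stood 22, 22 and 21 bases from the Id1 match in WT, KO1 and KO2, and the Id3 match at +4484 had a summit in WT and KO2.

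In 300 bases centred on a summit, the element was found at 4 of 14 Id summits in WT, 2 of 5 in KO1 and 2 of 13 in KO2. Among all summits of a library the share was 0.0594%, 0.0566% and 0.0462%. GGCGCC, with or without the second part, was far more common, at 10.6%, 12.6% and 10.6% of all summits. It was found at 5 of 14, 3 of 5 and 3 of 13 Id summits. At receptor and SMAD summits it was found at 4 of 19, 4 of 8 and 5 of 20, and the full element at none. The median share of G and C letters was 60.2%, 64.3% and 57.7% at Id summits. It was 50.3%, 56.5% and 50% at receptor and SMAD summits and 53%, 53% and 51% at all summits. The part of this base content in the GGCGCC shares was not tested. The ligand summits held neither GGCGCC nor the element. TAATTG, the core letters of MSX homeodomain binding, was found at 7.51%, 9.53% and 10.9% of all summits in the 3 libraries. Around the 10 genes it was found at 1 of 38 summits in WT, 0 of 16 in KO1 and 2 of 39 in KO2. A match is a run of letters and not a measured binding site. Because the element is known from BMP target genes, its shares at Id summits are description only.

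Read totals were not part of the lists, and the commonest background of each library stood in for its depth. This was 1.74 tags in WT, 0.476 in KO1 and 0.790 in KO2, so the WT library was 3.65 and 2.20 times as deep. Tags over background had a median of 13.2, 23.1 and 30.4 at the 13081 regions that every library shared. Tags over background were therefore also divided by this median, giving relative tags. Intervals cover counting error only, and duplicate reads were kept in the tag numbers. Promoter peaks stood at 6, 5 and 7 of 8 HFSC markers, but Nfatc1 passed in no library and Cd34, the sorting marker, was not listed in KO1. They stood at 2, 0 and 0 of 5 epidermal markers, at 2, 1 and 3 of 5 fibroblast markers, at 0, 0 and 1 of 4 endothelial markers, at 3, 2 and 3 of 5 melanocyte markers and at none of 5 leukocyte markers. The epidermal markers in WT were Krt10 and Ly6a, the gene of the Sca-1 antigen that the sort selected against, and their part in the results was not tested. Msx2 had a promoter peak in all 3 libraries, with 15, 9 and 16 tags, so the targeted gene gave no check of the labels. The peak names inside both KO lists carried the letters cKO, a short form of conditional knockout, whereas the study's methods describe a germline allele. The labels and the methods were followed.

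A promoter peak, with its summit within 1500 bases of a start site, was present at 8 of the 10 genes in WT and at 9 in each KO library. Among all protein-coding genes the share was 47.1% in WT, 37.9% in KO1 and 53.7% in KO2. The 8 genes of WT had a promoter peak in all 3 libraries, compared with 35.2% of all genes. These were Bmp6, both receptors, both SMADs and the 3 Id genes. No gene of the 10 had a promoter peak in both KO libraries and not in WT, where the share of all genes was 2.32%, and none had one in WT alone, where the share was 2.11%.

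Among the ligands, Bmp6 alone had a promoter peak in every library. Bmp6 (ENSMUSG00000039004.6, chromosome 13, 38345107 to 38500302, plus strand), a ligand of the inner bulge layer, had 23 tags at its promoter summit in WT, 9 in KO1 and 19 in KO2. Its relative tags were 1.00, 0.818 and 0.792, close to the median of shared regions in all 3. Bmp2 (ENSMUSG00000027358.6, chromosome 2, 133552159 to 133562885, plus strand), a ligand of the dermis and adipose tissue around the follicle, had 6, 6 and 10 promoter tags, and only KO2 passed the q-value. Bmp4 (ENSMUSG00000021835.15, chromosome 14, 46383520 to 46390669, minus strand), a ligand of the dermal papilla, had a promoter peak of 6 tags in KO1 and no promoter summit listed in the other libraries. The lowest tag number that passed was 9 in WT, 5 in KO1 and 6 in KO2, so the Bmp4 and Bmp2 promoters lay near the limit of these lists. Between them, the Bmp2 and Bmp4 windows held no region with a peak in all 3 libraries. Intron 1 of Bmp4, 3200 bases from the outermost start, had a peak of 18 tags in WT and one of 6 tags in KO2.

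The receptors and SMADs all had promoter peaks in every library. Bmpr1a (ENSMUSG00000021796.15, chromosome 14, 34410734 to 34503341, minus strand), the type I receptor, had 19 tags in WT, 20 in KO1 and 36 in KO2. Its relative tags were 0.826, 1.82 and 1.50. Both KO libraries were thus above WT, with ratios of 2.20 (95% interval 1.12 to 4.36) and 1.82 (1.01 to 3.35), whereas the KO libraries differed from each other by a ratio of 0.825 (0.465 to 1.50). Of the 8 genes with a promoter peak in all 3 libraries, Bmpr1a alone had intervals that excluded 1 against WT in both. These intervals are for 1 gene at a time, with no spread between WT samples behind them. The share of all promoters with such intervals was not counted, so 1 of 8 has no genome-wide share beside it. The deposited fold enrichments at this promoter were 5.18, 7.98 and 8.41.

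Bmpr2 (ENSMUSG00000067336.6, chromosome 1, 59763400 to 59879014, plus strand), the type II receptor, had 24, 11 and 30 tags and relative tags of 1.04, 1.00 and 1.25. Smad1 (ENSMUSG00000031681.16, chromosome 8, 79338395 to 79399518, minus strand) had 30, 12 and 34 tags and relative tags of 1.30, 1.09 and 1.42. Smad5 (ENSMUSG00000021540.16, chromosome 13, 56703010 to 56742377, plus strand) had 16, 12 and 21 tags and relative tags of 0.696, 1.09 and 0.875. For Bmpr2 and Smad1 the WT value lay between the KO values, and for Smad5 it lay below both by less than the counting error.

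At the Id genes the promoter summits held more tags over the background than at most genes. Id1 (ENSMUSG00000042745.9, chromosome 2, 152736251 to 152737410, plus strand) had 27, 18 and 42 tags, at −1103, −818 and −903 bases from the start site, with relative tags of 1.17, 1.64 and 1.75. Id2 (ENSMUSG00000020644.9, chromosome 12, 25093799 to 25097140, minus strand) had 39, 27 and 49 tags and relative tags of 1.70, 2.45 and 2.04. Id3 (ENSMUSG00000007872.3, chromosome 4, 136143497 to 136145755, plus strand) had 46, 17 and 37 tags and relative tags of 2.00, 1.55 and 1.54. Id1 and Id2 were higher in both KO libraries and Id3 lower in both, and all 6 intervals against WT included 1. The Id3 ratios were 0.773 (0.415 to 1.37) and 0.771 (0.486 to 1.21).

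**Figure D2:**
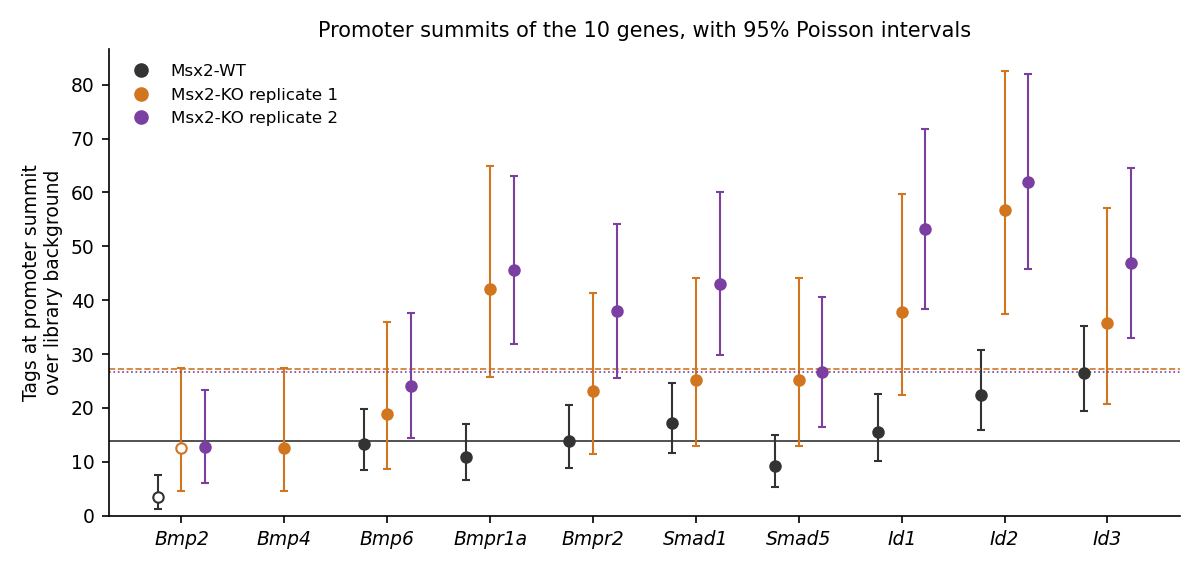
Tags at the promoter summit over the library background for the 10 genes (y axis, a ratio) with 95% Poisson intervals, where filled points passed a q-value of 0.01, open points were listed below it, and lines give the median of all promoters with a peak (solid WT, dashed KO1, dotted KO2). The KO points stand above WT at each gene listed in both, as does the median of shared regions, which was 13.2 in WT and 23.1 and 30.4 in the KO libraries.

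None of the 8 genes with a promoter peak in all 3 libraries had relative tags at least 2-fold higher in both KO libraries, where 2.83% of 7696 promoters did, and none had them at least 2-fold lower, where 2.78% did. Without division by the library median, 4 of the 8 were at least 2-fold higher in both, as were 39.9% of all promoters, and none was lower. In sorted cell populations, fewer cells of a type and less accessibility per cell cannot be told apart.

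The tag level around the Id promoters was higher than around those of the other genes. The local background, which the peak caller takes from the surroundings of a summit, was 3.44, 3.44 and 3.67 times the library background at Id1, Id2 and Id3 in WT. It was 8.35, 12.6 and 5.24 times in KO1 and 9.83, 13.6 and 6.85 times in KO2. At the 4 receptor and SMAD promoters it ranged from 1.28 to 1.71 in WT, from 2.38 to 3.43 in KO1 and from 3.96 to 4.51 in KO2. The median of all promoters with a peak was 1.40, 2.28 and 2.37. In each library every Id promoter was thus above every other promoter of the 10 genes. Id2 exceeded 95.6%, 99.3% and 99.5% of all promoters with a peak. A high local background lowers the deposited fold at a given tag number. The deposited fold at Id1 was 4.01, 3.82 and 4.91, above only 8.27%, 0.953% and 16.9% of promoters, while its tag number was above 56.1%, 67.6% and 82.7%.

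**Figure D3:**
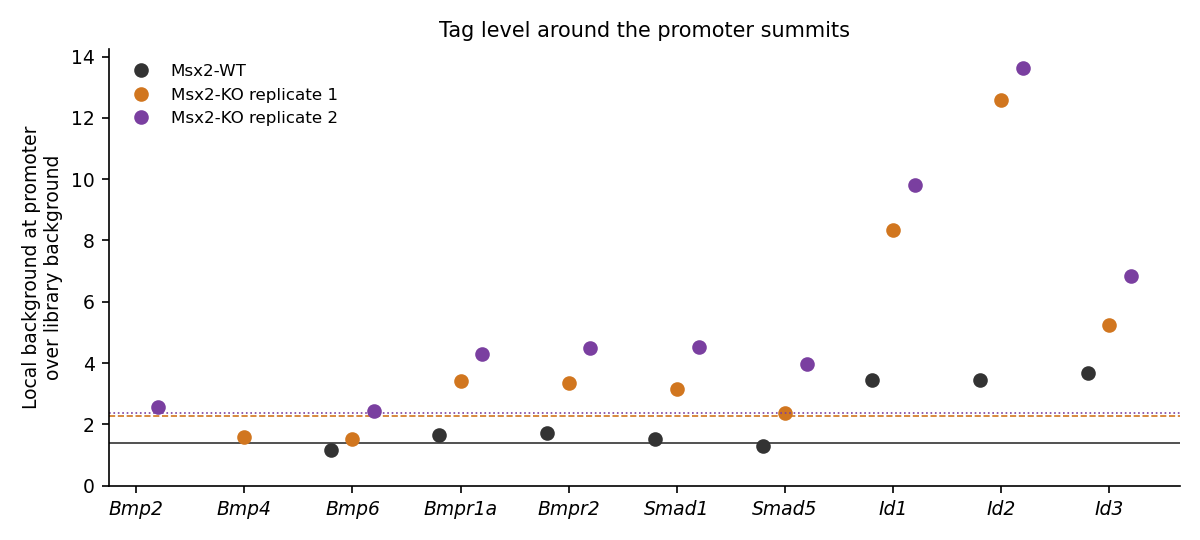
Local background at each promoter summit past a q-value of 0.01 over the library background (y axis, a ratio) for the 10 genes in the 3 libraries, with lines at the median of all promoters with a peak. The Id genes stand at 3.44 to 3.67 in WT, 5.24 to 12.6 in KO1 and 6.85 to 13.6 in KO2, above the other genes of each library.

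The windows of the 10 genes held 38 summits in WT, 16 in KO1 and 39 in KO2. Per 10 kb of window, the ligands had 0.171 summits in WT, 0.102 in KO1 and 0.205 in KO2. The receptors and SMADs had 0.405, 0.171 and 0.427. The Id genes had 1.10 (95% interval 0.604 to 1.85), 0.394 (0.128 to 0.920) and 1.03 (0.546 to 1.75). Pooled by role, Id windows were thus 6.47, 3.85 and 5.01 times as dense as ligand windows, and the order of roles was the same in all 3 libraries. Gene by gene, each Id gene was above all other genes of the 10 in WT and KO2. In KO1, Smad1 (0.396) exceeded Id3 (0.237). The receptors were not set apart from the ligands. In WT, Bmpr1a had 0.226 and Bmpr2 0.129, while Bmp2 had 0.197, Bmp4 0.212 and Smad1 0.890. In KO2, Bmp2 (0.591) exceeded Bmpr1a (0.452) and Bmpr2 (0.257). The intervals of Id genes and ligands overlapped in KO1 but not in WT or KO2, and those of receptors with SMADs overlapped both other roles in every library. The median over all genes was 0.206, 0.122 and 0.232. The WT value lay between those of the KO libraries for ligands and for receptors with SMADs and above both for the Id genes, and the lowest values belonged to KO1, the shallowest library.

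Id windows are short, from 41.2 to 43.3 kb, so a promoter weighs more in them than in the 195 kb window of Bmp6. With the summits at the genes' own promoters left out, the Id genes still had 0.710, 0.158 and 0.710 summits per 10 kb, compared with 0.277, 0.0640 and 0.235 for receptors and SMADs and 0.136, 0.0341 and 0.136 for ligands. Among the 2686 genes with windows no longer than 43.3 kb, the density of Id1 exceeded that of 96.3%, 88.8% and 92.2% in the 3 libraries. For Id2 the shares were 86.0%, 81.2% and 96.2%, and for Id3 they were 88.5%, 68.5% and 82.4%.

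**Figure D4:**
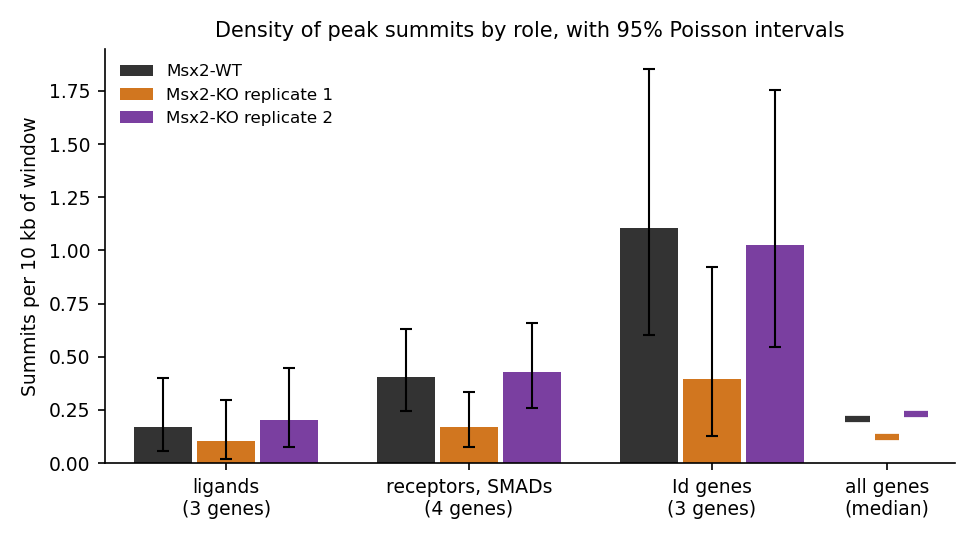
Peak summits per 10 kb of window (y axis) for ligands, receptors with SMADs and Id genes in each library, with 95% Poisson intervals, beside the median of all protein-coding genes. Id windows had 1.10, 0.394 and 1.03 summits per 10 kb in WT, KO1 and KO2, and ligand windows 0.171, 0.102 and 0.205.

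Merging peaks that shared at least 1 base gave 42 regions in the windows, of which 10 were at promoters and 32 were distal. All 3 libraries held 13 of the 42, or 31.0%, compared with 27.6% of 47562 regions genome-wide. WT alone held 10, or 23.8%, compared with 18.7%. Both KO libraries without WT held 1, compared with 7.66% of all regions. WT shared 7 regions, or 16.7%, with KO2 alone and 0 with KO1 alone, compared with 14.4% and 0.709% of all regions, so this split was near the genome-wide one. Without KO1, the regions common to the remaining libraries numbered 20 and those of KO alone 11, and without KO2 those of WT alone numbered 17. These leave-out counts have no genome-wide share beside them and are not read as a result about the 10 genes. By role, all 3 libraries held 2 of 9 ligand regions, 6 of 21 receptor and SMAD regions and 5 of 12 Id regions.

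Distal regions in all 3 libraries numbered 5. Downstream of Id1, at +3249, the region with the response element match had 32, 19 and 30 tags, compared with 27, 18 and 42 at the promoter. Upstream of Id2 the region with its match had 21, 23 and 39 tags. The third was in intron 4 of Smad1 at +49136, with 18, 11 and 36 tags, and in KO2 this exceeded the 34 of the promoter. The last pair lay downstream of Smad1 at +74295, with 9, 5 and 10 tags, and upstream of Bmp6 at −13923, with 14, 6 and 15 tags. The 2 Id regions were the strongest of the 5 in WT and in KO1.

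The only region in both KO libraries and not in WT overlapped exon 3 and intron 3 of Smad1 (chr8:79355582-79356909). It had 7 tags in KO1 and 12 in KO2, and WT was listed there with 5 tags below the q-value. The 10 regions of WT alone lay at Bmp2, Bmp6, Bmpr1a, Smad1, Smad5 and Id1, none at a promoter peak of the gene, with 9 to 18 tags. The region at Bmpr1a lay at −1246 from the outermost start. It lay at −1900 from the nearest protein-coding start, from which promoters were counted. The strongest of the 10 was in intron 1 of Smad1 at +26894, where WT had 18 tags, KO1 was not listed and KO2 had 7 tags below the q-value. At Id1 the region of WT alone lay at −19599, with 13 tags, and KO2 was listed there with 5. Regions of WT and KO2 included Id1 +5370, with 31 and 20 tags, and Id2 −13324, with 21 and 9 tags, and KO1 was listed at neither.

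**Figure D5:**
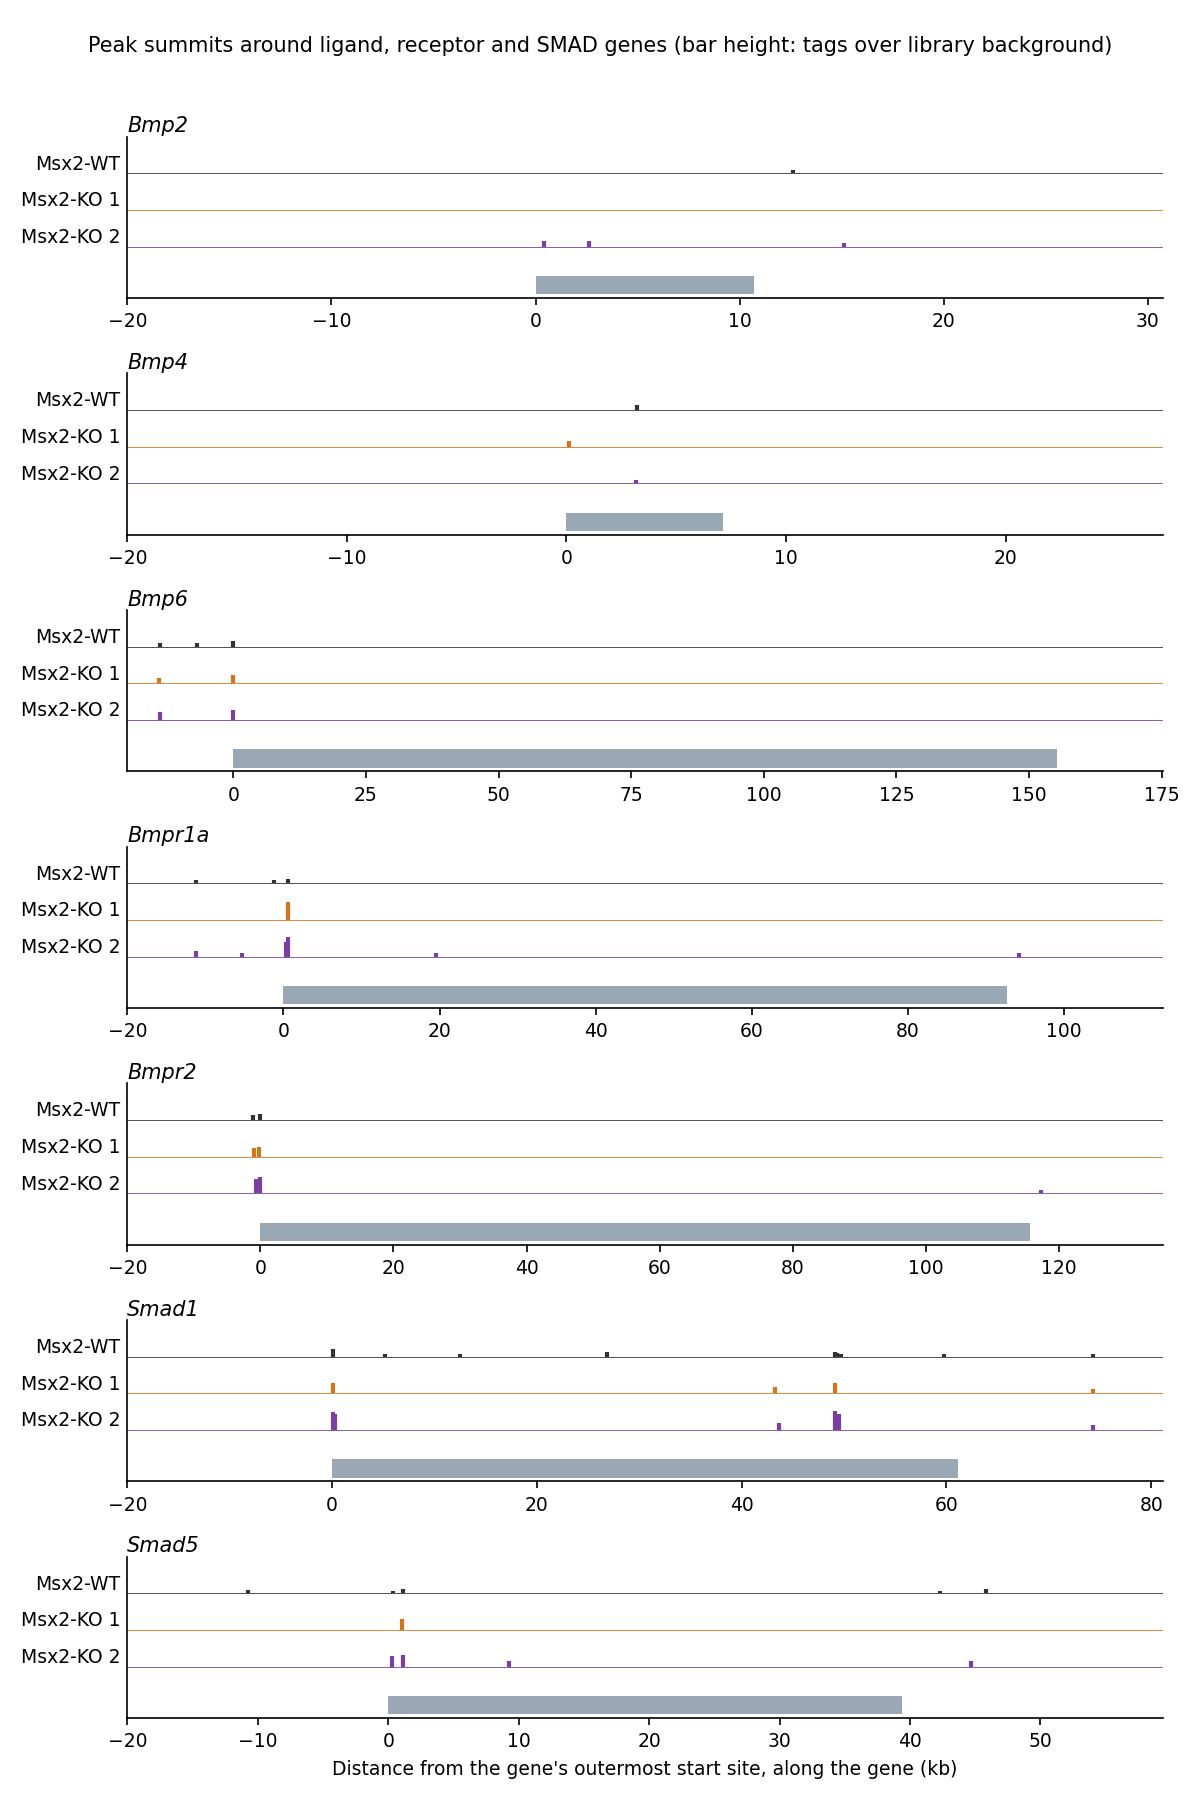
Peak summits past a q-value of 0.01 around the ligand, receptor and SMAD genes in the 3 libraries, by distance in kb from the outermost start site, with bar height giving tags over the library background and grey boxes the genes. The tallest bars, at Bmpr1a and in intron 4 of Smad1 in KO2, stand for 45.6, and Smad1 had 9, 4 and 6 summits in WT, KO1 and KO2, and Bmp2 had 1, 0 and 3.

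Of 32 other genes of the pathway, 16 had a promoter peak in WT, 15 in KO1 and 22 in KO2, where the shares of all genes were 47.1%, 37.9% and 53.7%. All 3 libraries shared 15, compared with 35.2% of all genes, and none of the 32 had a promoter peak in WT and neither KO library or in both KO libraries and not WT. Among the 8 Bmp and Gdf genes of these 32, 1 had a promoter peak in all 3. The counts were 3 of 5 for other receptors, 3 of 4 for other SMADs and 5 of 12 for antagonists. No library had a promoter peak at 10 genes. These included the ligands Bmp3, Bmp5, Bmp8a, Bmp8b and Gdf5, the receptor Acvrl1, and the antagonists Chrd, Chrdl1 and Nbl1, which bind BMP ligands outside the cell. Id4, the remaining Id gene, had 57, 21 and 39 promoter tags.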

How the data were processed

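Peak lists of 3 Omni-ATAC-seq libraries (Msx2-WT, and Msx2-KO replicates 1 and 2, or WT, KO1 and KO2) were used, 1 list per library and with replicates not pooled. Per the study's methods and the submitters' processing notes, the authors used Trimmomatic to trim reads, BWA-MEM to align them to GRCm38 and, after excluding mitochondrial reads, MACS2 to call peaks without a shifting model and with duplicates kept; the MACS2 version is not given in the sources used here. The authors deposited for each summit a fold enrichment (a ratio of tags to local background), −log10 p-values and −log10 q-values. The deposited score column was not used. The lists stop at a p-value of 0.01, so summits with a −log10 q of at least 2 were kept, or 33654 of WT, 19450 of KO1 and 41091 of KO2. KO1's list carries another library number than its label.

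Whole tag numbers were solved from fold and −log10 p, within 0.002 on the −log10 p scale, for at least 99.9% of summits in each library, and the solver was tested on simulated data. Intervals are 95% Poisson intervals, or exact binomial intervals for ratios of tag numbers. Promoters were within 1500 bases of a protein-coding start site, and the place of a peak is that of its strongest summit. Motifs were read from the GRCm38 reference. All 10 genes are described, other pathway genes by counts, named where no library had a promoter peak (1 such gene is not reported here by name), and regions only at promoters, in all 3 libraries or split by genotype. Other regions were named after their values were seen. The genes and lists were chosen with earlier results of these data known. Alternatives covered the q-value, list length, windows, overlap, scaling and leaving out each KO library. Scripts ran in Python 3.11.15 with pysam 0.24.0, scipy 1.17.1, pandas 2.3.3, numpy 2.4.6 and matplotlib 3.10.9.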

Additional observations from a re-analysis of the deposited data

How the results depend on the processing

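Genes with a promoter peak numbered 8 to 9 in WT, 6 to 10 in KO1 and 8 to 9 in KO2 over the alternatives run, with the 6 at a −log10 q of at least 5. With flanks of 10 kb the Id genes had 1.65, 0.749 and 1.65 summits per 10 kb in WT, KO1 and KO2, within the counting intervals of the reported values. In WT, KO1 and KO2, summits in the windows numbered 23, 7 and 25 at a −log10 q of at least 5, 72, 29 and 64 with every deposited summit, and 63, 32 and 60 with flanks of 50 kb. With lists of equal length they numbered 23 in WT and 21 in KO2. Pooled by role, Id windows were densest, then receptors with SMADs, then ligands, in 24 of 24 combinations of setting and library. Summits per 10 kb moved at a −log10 q of at least 5 to 0.0682 for ligands in KO2 and, for receptors with SMADs, to 0.192 in WT and 0.0640 in KO1. With every deposited summit they moved to 0.546 for ligands in WT and to 0.811 in WT and 0.704 in KO2 for receptors with SMADs. With lists of equal length they moved to 0.0682 for ligands in KO2 and to 0.192 and 0.256 for receptors with SMADs in WT and KO2. Without the genes' own promoters, an alternative chosen after seeing the data, receptors with SMADs had 0.0640 in KO1 and 0.235 in KO2.

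Regions in all 3 libraries fell to 6 at a −log10 q of at least 5 and to 5 with 50% reciprocal overlap, and rose to 20 with every deposited summit. Regions in both KO libraries and not in WT numbered 3 with every deposited summit and 6 with reciprocal overlap, and regions in WT alone 29 and 26. Regions in WT and KO2 alone numbered 11 with every deposited summit, 0 with lists of equal length and 2 with reciprocal overlap, and those in WT and KO1 alone 1, 1 and 2. With 1 KO library left out, regions in all libraries ranged from 13 to 20, those in KO and not in WT from 2 to 11, and those in WT alone from 10 to 17, the last value without KO2. These region counts have no genome-wide share beside them, and the cause of their shifts was not tested. Genes at least 2-fold higher numbered 0 to 1 with a KO library left out, and that gene was Bmpr1a, past 2-fold in KO1 alone. They numbered 4 with tags over background not divided by the library median, an alternative chosen after seeing the data. No paired analysis was possible because the genotypes share only 1 replicate number and no test was made. Depth limits what was detectable: at under 9 tags in WT no peak passed, and in KO1, with a background of 0.476 tags, a missing peak does not show closed chromatin.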

Other observations

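Among the 32 other pathway genes, 2 had a response element match in their window. Grem1, which encodes an extracellular antagonist of BMP ligands, had 1 at +903 from its outermost start site, and it lay in a peak in all 3 libraries, 95 bases from the summit in WT, 384 in KO1 and 101 in KO2. Id4 had 1 at +1662, which lay in no peak, with the nearest summit 2005, 1940 and 1914 bases away. Thus all 4 Id genes had a match in their window, while Id4, with the highest promoter tag number of the 4 in WT, had none in a peak. The 3 genes with at least 3 matches were Id3, B3galt6 and Sdf4, all on chromosome 4, and the last pair was named after the counts were seen. A match can lie in the windows of more than 1 gene, since 498 genes had a match and the matches numbered 447. The counts of B3galt6 and Sdf4 may therefore rest on the same matches. The letters next to the match were also alike at the Id genes. A G followed the match at 6 of the 6, compared with 37.8% of all 447, and a T preceded it at 5 of the 6, compared with 29.3%. Whether these letters belong to the element as known from BMP target genes was not examined, so this likeness is description only.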
